A study of Rattus norvegicus with 4 samples.

Results

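The genes described here copy DNA and make the nucleotides it is built from. They comprise 49 genes fixed by name: the origin recognition and licensing factors, the helicase and its activators, the clamp and clamp loader, the replicative polymerases, and enzymes of nucleotide synthesis. Every probe whose RefSeq transcript accession leads to one of these names was taken, which gave 62 probes in 162 spots for 48 of the 49 genes, among 16581 named genes on the array. Mcm5 was matched by no probe. The cells are NR8383, a rat alveolar macrophage line established by lung lavage and described as taken after 20 passages. They were exposed for 4 h to 0.9 cm2/cm2 of Printex90, a carbon black, in samples labelled ALI_CB. The series has a single analysed group of 4 arrays, 1 for each biological replicate, all with the same genotype, treatment and time, and untreated cells were not analysed here. No value below is therefore a change caused by the particles, and what the arrays give is the level and the spread of each gene in exposed cultures of 1 cell line.

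Replication starts when the origin recognition complex, Cdc6 and Cdt1 load the ring-shaped MCM helicase onto DNA in G1 phase. Cdc7 with its partner Dbf4, Cdc45, the GINS complex and Mcm10 then turn the loaded rings into active forks in S phase. Polymerase alpha-primase lays primers, polymerases delta and epsilon extend them, and the sliding clamp PCNA, loaded by replication factor C, keeps the polymerases on the template. Many of these genes are known targets of E2F transcription factors, which act when a cell commits to S phase. Macrophages in tissue rarely divide, whereas NR8383 is a line that grows in culture.

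Promoter sequences were available from RefSeq for 42 of the 49 genes, as 43 windows of 300 bases in the GRCr8 assembly, since Dut has 2 annotated starts. Orc1, Orc4, Mcm4, Cdc6, Gins4, Rrm2 and Umps had no entry. Each window, 250 bases before to 50 after the annotated start, was searched on both strands for 4 core words of the E2F site, TTTCCCGC, TTTGGCGC, TTTGCCGC and TTTCGCGC. An E2F word stood in 15 of the 43 windows (34.9%), against 2.14% of all 33469 windows in the table and 4.24% of the 7458 windows of genes detected on all 4 arrays. The stretches below carry an E2F word before the start and show how the words lie in helicase genes, in the deoxynucleotide gene Tyms and in Pola1, whose transcript was not detected. Capitals mark the E2F words, and every stretch is written in the direction of transcription, with base -1 just before the start.

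Mcm2, chr4:122918095-122918132, minus strand: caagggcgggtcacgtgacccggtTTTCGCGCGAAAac

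Mcm5, chr19:13488781-13488812, plus strand: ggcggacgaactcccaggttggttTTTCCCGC

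Mcm6, chr13:42404456-42404515, minus strand: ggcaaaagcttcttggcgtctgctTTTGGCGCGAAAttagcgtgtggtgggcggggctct

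Gins1, chr3:160184871-160184919, plus strand: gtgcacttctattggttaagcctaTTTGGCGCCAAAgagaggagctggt

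Tyms, chr9:120776089-120776144, minus strand: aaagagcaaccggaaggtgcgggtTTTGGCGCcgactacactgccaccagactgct

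Pola1, chrX:62342496-62342551, minus strand: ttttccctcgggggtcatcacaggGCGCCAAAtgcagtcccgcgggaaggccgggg

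In Mcm2, Mcm6 and Gins1 a pair of E2F words on opposite strands overlapped in one run, and Mcm5 held a further pair of this kind from base -213. All 5 MCM genes with a window held an E2F word, namely Mcm2, Mcm3, Mcm5, Mcm6 and Mcm7. So did both licensing factors with one, Cdt1 and Gmnn, and both polymerase epsilon genes, Pole and Pole2. None of the 2 pyrimidine and 3 purine synthesis genes with a window did, and of the 5 deoxynucleotide genes only Tyms. Counting the centre of each match, 12 of the 15 genes had an E2F word between base -60 and the end of the window.

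The CCAAT box, the site of the factor NF-Y, stood in 23 of 43 windows (53.5%), against 37.5% of all windows and 38.3% of those of detected genes. In 10 member windows it came together with an E2F word, which 0.777% of all windows held. The GC box GGGCGG stood in 28 windows (65.1%), against 33.1% of all windows and 61.0% of those of detected genes. The E-box CACGTG was found in 3 windows (6.98%), those of Mcm2, Fen1 and Rfc1. Its share was 6.42% over all windows and 9.39% over those of detected genes. The TATAAA word was found in the window of Impdh2 alone (2.33%), after the start and on the opposite strand, as TTTATA. It stood in 14.2% of all windows and 7.58% of those of detected genes. The median GC content was 60% for member windows, 60.3% for detected genes and 51.7% for all windows. Member windows and those of detected genes had nearly the same median GC content and a similar GC box share, and their shares of E2F words differed. Windows were not matched by GC content, and its part in the share of E2F words was not tested. These matches are letters in a window and were not tested as binding sites.

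Mcm7 shows both kinds of element in one promoter. The 250 bases before its start, chr12:22163179-22163428 on the minus strand, are printed with the E2F words, the CCAAT boxes (as CCAAT or ATTGG) and the GC box (as CCGCCC) in capitals. The E2F word nearer the start shares its last base with a CCAAT box.

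Mcm7: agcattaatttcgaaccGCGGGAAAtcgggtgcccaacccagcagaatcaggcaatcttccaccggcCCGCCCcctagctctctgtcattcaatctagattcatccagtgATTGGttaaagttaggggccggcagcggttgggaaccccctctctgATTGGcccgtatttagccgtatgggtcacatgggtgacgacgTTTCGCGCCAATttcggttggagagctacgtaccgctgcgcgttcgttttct

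**Figure D1:**
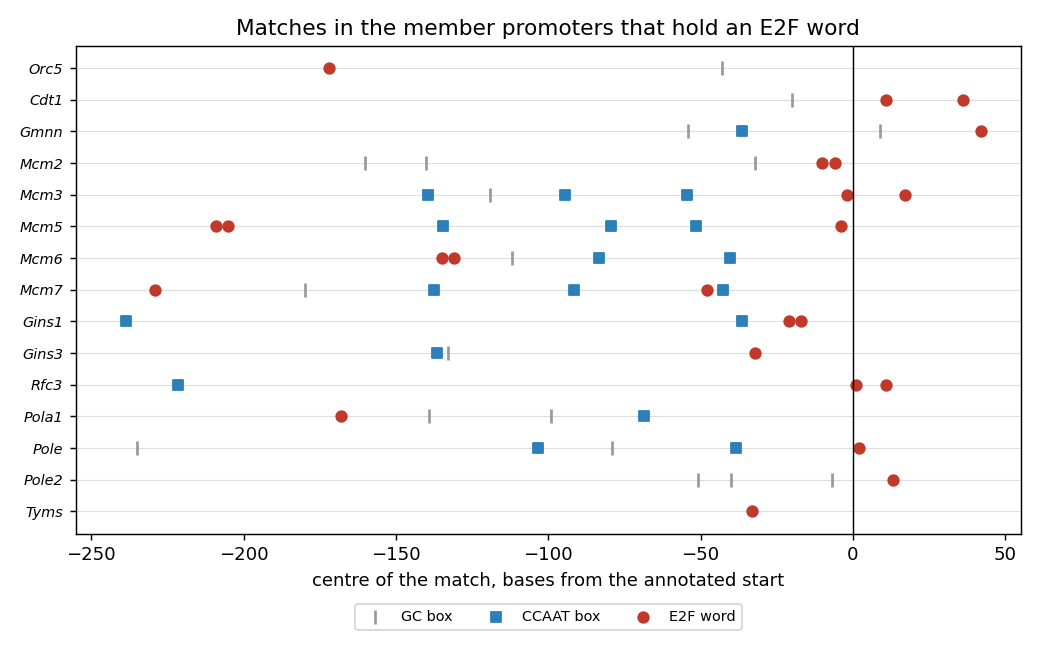
Matches to E2F words (red circles), CCAAT boxes (blue squares) and GC boxes (grey bars) in the 15 member promoters that hold an E2F word, one row per gene. The x axis gives the centre of each match in bases from the annotated start (vertical line), and most E2F words lie within 60 bases before the start or after it.

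Of the 48 measured genes, 42 (87.5%) gave signals well above background on every one of the 4 arrays, against 50.8% of the 16581 named genes. Each array detected 42 to 45 of them. Levels below are log2 intensities relative to the array's 75th percentile, so that 0 lies at that percentile, and they come from the brightest probe of a gene. Since each gene has probes of its own, levels are compared between arrays and not between genes. In bulk cultures, fewer replicating cells and less RNA per cell cannot be told apart.

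**Figure D2:**
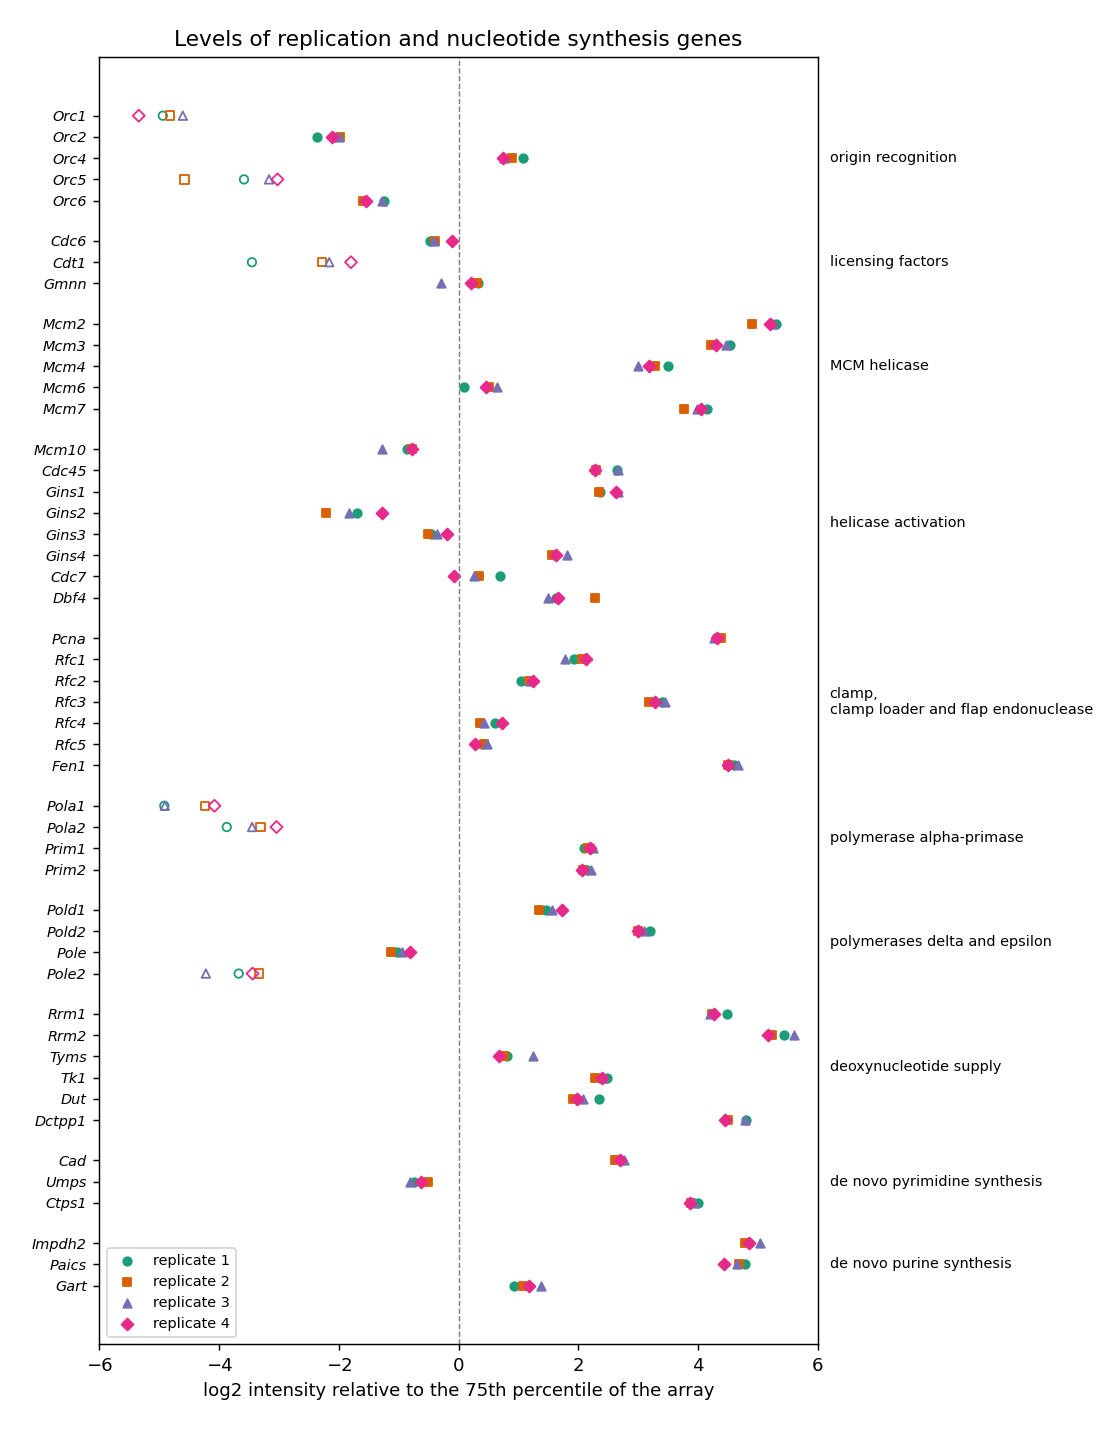
Level of each of the 48 measured genes on the 4 arrays, grouped by role. The x axis is log2 intensity relative to the 75th percentile of the array, colours and symbols mark the replicates, and open symbols mark the 6 genes not detected on all 4 arrays, which lie at the left of the plot.

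Origin recognition was measured in part. Orc2, a core subunit, had levels of -2.36, -1.98, -1.99 and -2.11 on replicates 1 to 4 (mean -2.11 ± 0.18, SD, n = 4). Orc4, another subunit of the complex, had levels of 1.08, 0.89, 0.76 and 0.74 (0.87 ± 0.16, SD, n = 4). Orc6 was detected on every array, at between -1.60 and -1.24. Orc1, the largest subunit, was well above background on no array, with measured values of -4.94, -4.83, -4.61 and -5.34, which correspond to intensities of 2.95 to 4.14. Orc5 was detected on replicate 4 alone, at -3.58, -4.58, -3.17 and -3.03. So 3 of these 5 subunits were detected on all 4 arrays, and each rested on a single probe. Orc3, a further subunit outside the member list, has 2 probes and is named here after its values were seen. It was detected on all 4 arrays, at 0.17, 0.17, -0.22 and -0.01.

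Among the licensing factors, Cdc6, the ATPase that helps load the helicase, had levels of -0.47, -0.39, -0.41 and -0.10 (-0.34 ± 0.16, SD, n = 4). Gmnn encodes geminin, which binds Cdt1 and blocks a second licensing, and had levels of 0.32, 0.31, -0.29 and 0.21 (0.14 ± 0.29, SD, n = 4). Replicate 3 was the low one for Gmnn. Cdt1 itself was detected on replicates 2 to 4 but not on replicate 1, with values of -3.45, -2.28, -2.16 and -1.80. Where it was detected, Cdt1 was highest on replicate 4 and lowest on replicate 2.

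All 5 measured MCM genes were detected. Mcm2 had levels of 5.30, 4.91, 5.26 and 5.21 (5.17 ± 0.18, SD, n = 4) and Mcm3 of 4.53, 4.22, 4.47 and 4.30 (4.38 ± 0.15, SD, n = 4). Mcm7 ran likewise, at 4.16, 3.77, 3.99 and 4.04 (3.99 ± 0.16, SD, n = 4). By these probes, the 3 genes were highest on replicate 1 and lowest on replicate 2, by 1.24- to 1.32-fold. Mcm4 had levels of 3.50, 3.28, 3.00 and 3.18 (3.24 ± 0.21, SD, n = 4), with replicate 3 lowest. Mcm6 went the other way on replicate 1, with levels of 0.08, 0.50, 0.64 and 0.45 (0.42 ± 0.24, SD, n = 4). The subunits form one ring, and on these arrays their small differences between replicates did not run in parallel.

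All 8 genes that activate the helicase were detected, and they include the 3 with the largest SD among members detected on all arrays. Gins2 had levels of -1.69, -2.22, -1.83 and -1.27 (-1.75 ± 0.39, SD, n = 4), a 1.93-fold range. Dbf4, the activating partner of the Cdc7 kinase, had levels of 1.62, 2.28, 1.499 and 1.66 (1.77 ± 0.35, SD, n = 4), and replicate 2 stood above the others. Its second probe did not repeat this, at -1.65, -1.78, -1.60 and -1.54. The single spot of the brighter probe lay in an unusually bright region of the replicate 3 array. Without such regions the level of Dbf4 came from its second probe, at -1.65 with an SD of 0.11. Cdc7 had levels of 0.70, 0.34, 0.25 and -0.08 (0.31 ± 0.32, SD, n = 4). Kinase and partner thus stood highest on different arrays.

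Cdc45, a helicase cofactor, had levels of 2.65, 2.30, 2.67 and 2.28 (2.47 ± 0.21, SD, n = 4), with replicates 1 and 3 above replicates 2 and 4. The GINS subunit gene Gins1 had levels of 2.37, 2.35, 2.66 and 2.62 (2.50 ± 0.16, SD, n = 4). Mcm10, which binds the forming fork, had levels of -0.86, -0.78, -1.28 and -0.78 (-0.92 ± 0.24, SD, n = 4), so that replicate 3 lay apart from the rest. Gins3 and Gins4 had means of -0.38 ± 0.14 and 1.65 ± 0.11 (SD, n = 4 for both).

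The clamp gene varied little, while the spread of the loader genes differed from gene to gene. Pcna had levels of 4.31, 4.38, 4.26 and 4.32 (4.32 ± 0.05, SD, n = 4), the smallest SD of all detected members. Rfc1, the large subunit of the loader, had levels of 1.93, 2.07, 1.78 and 2.12 (1.98 ± 0.15, SD, n = 4). Rfc2 had levels of 1.05, 1.18, 1.19 and 1.24 (1.16 ± 0.08, SD, n = 4). The remaining loader genes had means of 3.33 ± 0.13 (Rfc3), 0.53 ± 0.17 (Rfc4) and 0.39 ± 0.09 (Rfc5), and Fen1, the flap endonuclease that trims Okazaki fragments, one of 4.57 ± 0.08 (SD, n = 4 for all). The median SD of the 7 genes was 0.09.

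Polymerase alpha-primase was split by detection. Both primase genes were detected: Prim1 had levels of 2.10, 2.16, 2.25 and 2.19 (2.17 ± 0.06, SD, n = 4), and Prim2 had a mean of 2.12 ± 0.08 (SD, n = 4). The catalytic polymerase gene Pola1 was well above background on no array, with measured values of -4.92, -4.24, -4.91 and -4.08. Pola2, the B subunit of the same enzyme, was detected on replicate 4 alone, at -3.87, -3.31, -3.45 and -3.04. The replicate 4 array detected the most genes, 9985, against 8917 to 9241 on the other arrays, and its part in these single detections was not tested. Each of these 4 genes has 1 probe on the array.

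Of the other polymerases, the delta genes were both detected. Pold1, the catalytic subunit, had levels of 1.46, 1.34, 1.56 and 1.73 (1.52 ± 0.17, SD, n = 4), and its partner Pold2 of 3.19, 3.00, 3.09 and 2.99 (3.07 ± 0.09, SD, n = 4). Pole, the catalytic subunit of polymerase epsilon, had levels of -1.03, -1.12, -0.94 and -0.81 by its brightest probe (-0.97 ± 0.13, SD, n = 4). Its partner Pole2 was detected on no array, at -3.67, -3.34, -4.22 and -3.44.

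All 6 genes of deoxynucleotide supply were detected. Rrm1, the large subunit of ribonucleotide reductase, had levels of 4.49, 4.23, 4.20 and 4.27 (4.30 ± 0.13, SD, n = 4). Rrm2, the small subunit made mainly in S phase, had levels of 5.44, 5.23, 5.61 and 5.17 (5.36 ± 0.20, SD, n = 4). By their brightest probes, the pair differed in their high array, which was replicate 1 for Rrm1 and replicate 3 for Rrm2. Thymidylate synthase, Tyms, had levels of 0.82, 0.76, 1.25 and 0.67 (0.87 ± 0.26, SD, n = 4), again with replicate 3 highest. The thymidine kinase gene Tk1 had a mean of 2.39 ± 0.08, the dUTPase gene Dut 2.08 ± 0.19, and Dctpp1, whose product breaks down abnormal dCTP, 4.64 ± 0.18 (SD, n = 4 for all).

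The 6 genes of de novo base synthesis were all detected as well. Cad, the enzyme that starts pyrimidine synthesis, had levels of 2.71, 2.62, 2.77 and 2.69 (2.70 ± 0.06, SD, n = 4). Umps, which completes UMP, had levels of -0.75, -0.51, -0.81 and -0.63 (-0.67 ± 0.14, SD, n = 4), and the CTP synthase gene Ctps1 of 4.00, 3.88, 3.93 and 3.87 (3.92 ± 0.06, SD, n = 4). Cad and Ctps1, with Pcna, were the 3 least variable members. On the purine side, Impdh2, the enzyme that commits IMP to GMP, had levels of 4.86, 4.79, 5.04 and 4.86 (4.88 ± 0.11, SD, n = 4). The purine synthesis gene Paics had levels of 4.79, 4.69, 4.66 and 4.43 (4.64 ± 0.15, SD, n = 4), lowest on replicate 4. Gart, which encodes several activities of the same pathway, had levels of 0.93, 1.08, 1.37 and 1.17 (1.14 ± 0.19, SD, n = 4).

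Probes of one gene did not always detect it. Of the 48 genes, 11 had more than 1 probe, and in 3 of these, Gins2, Pole and Rrm1, the probes disagreed on detection. The second probe of Gins2 was detected on no array, at -5.11, -4.39, -4.07 and -4.09. For Pole, a second probe was detected on 1 array, at -3.22, -3.01, -2.97 and -2.79, and a further one on none, at -5.09, -5.01, -5.08 and -4.21. The second Rrm1 probe was detected on 2 arrays, at -2.80, -3.36, -2.81 and -2.79. A single probe without signal therefore does not show that a transcript was missing. This bears on Orc1, Orc5, Cdt1, Pola1, Pola2 and Pole2, the 6 genes not detected on all arrays, each of which has 1 probe.

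In the other 8 members with several probes, every probe was detected on all 4 arrays. Their patterns over the arrays were not always the same. The second probe of Mcm2 read 2.57, 2.49, 2.66 and 2.76 on replicates 1 to 4, highest on replicate 4. That of Mcm3 read -2.05, -1.85, -2.16 and -2.61, highest on replicate 2, where the brightest Mcm3 probe was lowest. A second Mcm4 probe read 3.32, 3.14, 3.10 and 3.10, highest on replicate 1 like the brightest one. A further Mcm4 probe read -1.45, -1.145, -1.50 and -2.66, highest on replicate 2. The second Rrm2 probe read 0.62, 0.42, 0.62 and 0.64, highest on replicate 4, where the brightest one was lowest. Second probes of Tk1 (0.04, 0.18, 0.33 and -0.42) and Dut (0.21, 0.24, 0.35 and 0.29) were highest on replicate 3. The brightest probes of Tk1 and Dut were highest on replicate 1. All 3 Paics probes were highest on replicate 1.

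Detection was also set against the promoter words. Among the 41 measured genes with a promoter window, full detection was found for 10 of the 14 with an E2F word (71.4%) and for 26 of the 27 without one (96.3%). Orc5, Cdt1, Pola1 and Pole2 were the 4 genes with a word and without full detection. Over all windows, 316 of the 716 with an E2F word were of genes detected on all 4 arrays, against 7458 of all 33469. The direction there was the opposite one, and those windows include genes without a probe. The difference among the members was not tested, and it rests on single probes.

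Replicates agreed about as closely for the members as for all detected genes. The median SD of the 42 detected genes was 0.16 on the log2 scale, and that of all 8424 detected genes was also 0.16. The median ratio of the highest to the lowest array was 1.27-fold for the members and 1.29-fold for all detected genes. An SD above 0.25 was found for 5 members (11.9%), namely Gins2, Dbf4, Cdc7, Gmnn and Tyms, against 22.6% of all detected genes. Without the bright regions, a count added after seeing the data, Mcm6 took the place of Dbf4 among these 5, against 20.9% of all detected genes. In the 8 members with a level below 0 the median SD was 0.17, against 0.24 for all detected genes in that range. Between 0 and 2 it was 0.17 for 13 members and 0.16 for all 2210 genes. Above a level of 2 the values were 0.13 for 21 members and 0.14 for 3971 genes.

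**Figure D3:**
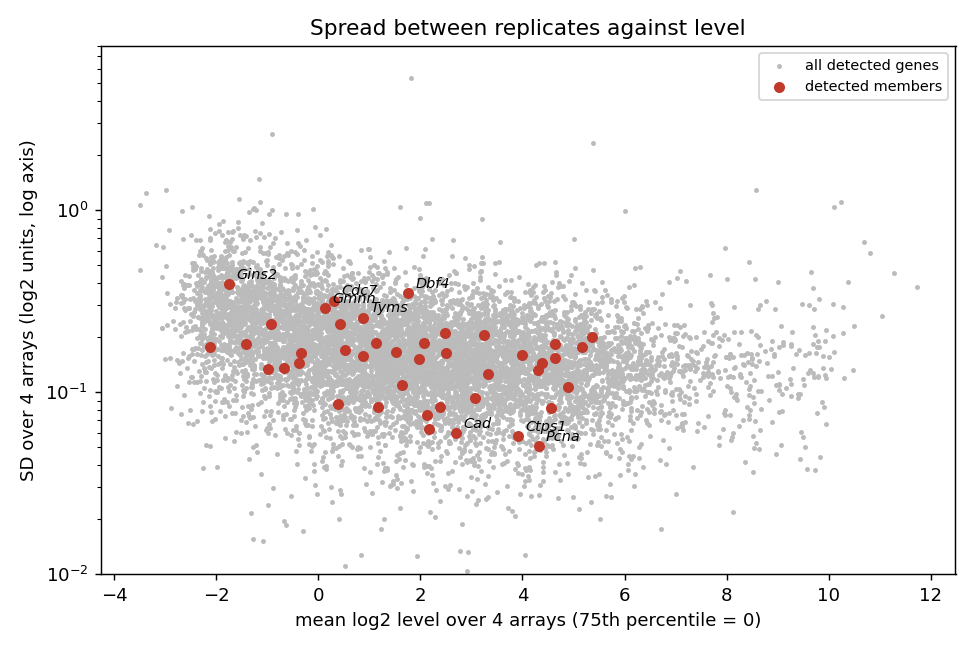
SD over the 4 arrays (log axis, log2 units) against the mean level of each gene. Red points are the 42 detected members and grey points all 8424 detected genes; the 5 members with the largest SD, led by Gins2 at 0.39, and the 3 with the smallest, led by Pcna at 0.05, are named.

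Scaling to the 75th percentile largely sets any shift common to all genes near 0, so the members are read against all genes. Each gene's level on an array was set against its own mean over 4 arrays, and the median of these deviations over the 42 members was 0.05, -0.07, 0.03 and -0.01 on replicates 1 to 4. The same medians over all detected genes were 0.03, -0.02, 0.03 and -0.03. Scaled to the array median instead, the members' medians on replicates 2 to 4 were -0.332, 0.461 and -0.273, with all detected genes at -0.284, 0.46 and -0.284. On replicate 2 the median of the members was 0.05 below that of all genes. On that array 16 members (38.1%) were lowest, against 26.7% of all detected genes, and 4 (9.52%) were highest, against 17.6%. Under all 9 ways of scaling and filtering tried over 4 arrays, the members' median was above 0 on replicate 1 and below 0 on replicate 2. The sign on replicates 3 and 4 changed with the scaling. A sign against 0 depends on the constant taken from each array. Relative to all genes, the members' median on replicate 2 stood at -0.0487. The array median and the percentile over detected probes cannot change this value, since they only take another constant from each array. It was -0.111 without the detection filter and between -0.0548 and -0.0456 under the other ways. With flagged spots kept, 10 members were lowest on replicate 2, against 21.6% of all detected genes.

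Role groups moved by small amounts around these medians. The MCM genes had medians of 0.15, -0.16, 0.09 and 0.03 on replicates 1 to 4, and the deoxynucleotide genes 0.13, -0.12, 0.08 and -0.14. By the brightest probes, 4 of the 5 MCM genes and 4 of the 6 deoxynucleotide genes were highest on replicate 1. So were 15 of all 42 detected members and 31.0% of all detected genes. Second probes of Mcm2, Mcm3, Tk1 and Dut were highest on other arrays. The group medians of the clamp and loader genes lay between 0.00 and 0.02, and those of the pyrimidine genes between -0.04 and 0.01, while single genes such as Rfc1 and Umps varied more.

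**Figure D4:**
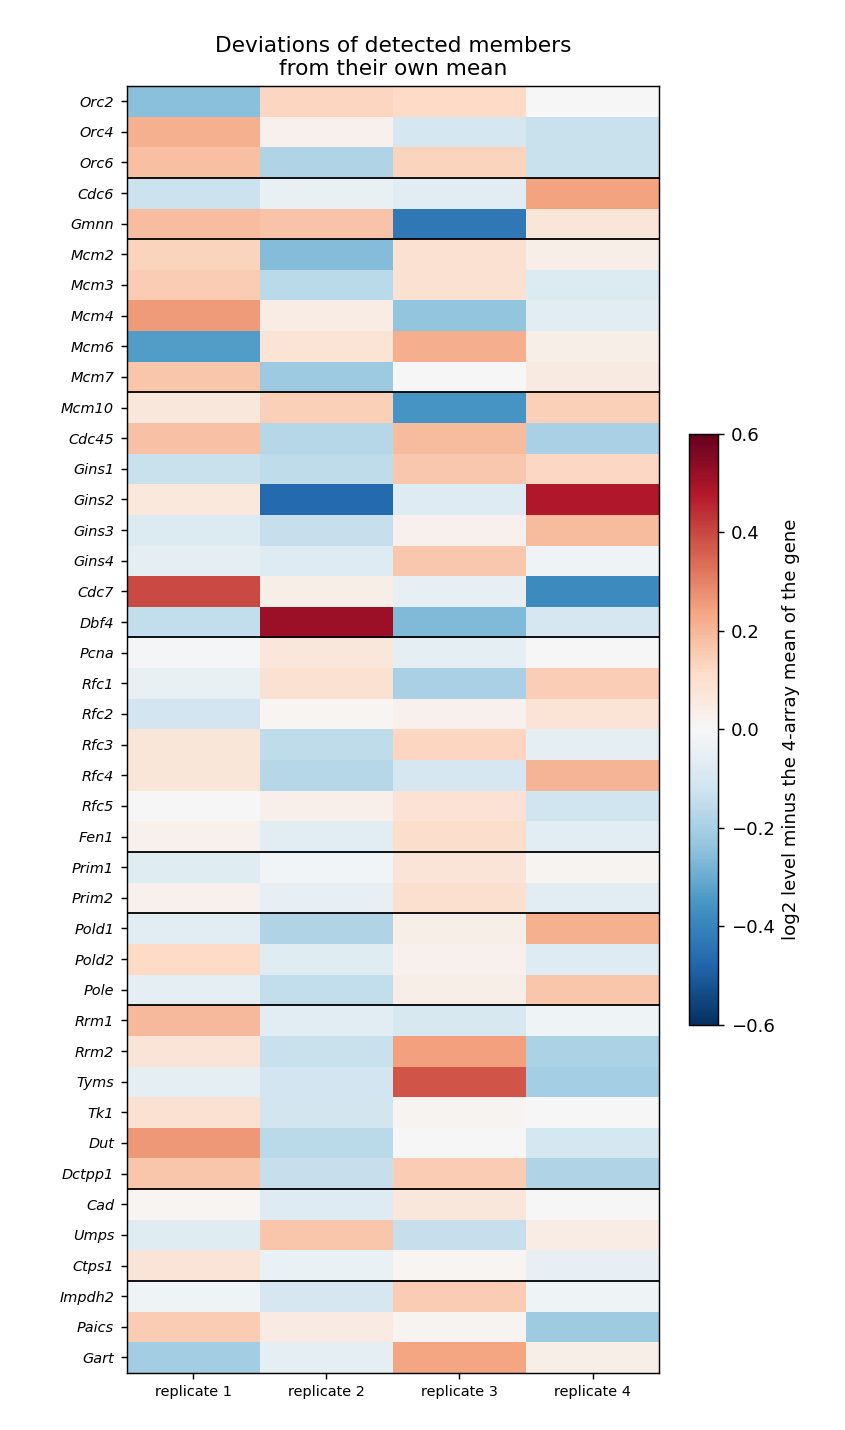
Deviation of each of the 42 detected members (rows, grouped by role between black lines) from its own mean on each of the 4 arrays (columns), in log2 units. Red is above and blue below the mean; the strongest colours belong to single genes such as Gins2, Dbf4, Cdc7 and Gmnn, and no column is of one colour.

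For 9 members a probe was printed 10 times on each array. The spread of its spots within an array was set beside the spread between arrays, which also holds labelling and hybridisation. Over the 10 such probes the median SD between spots of one array was 0.11, and the median SD between array means was 0.15. For all 1067 detected probes printed this often the values were 0.11 and 0.13. The SD between arrays was the smaller one for Fen1 and one probe of Paics and the larger one for the other member probes. How often it was larger among all probes printed this often was not counted. An array mean averages 7 to 10 spots, so its own error is smaller than the SD of single spots. The SDs are thus unlike, and the values of Fen1 and this Paics probe do not show that their arrays were equal within error. Spots of one array share a hybridisation and are not biological replicates.

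In some genes the spots of a pair of arrays did not overlap at all. The spots of Dctpp1 lay between 4.71 and 4.91 on replicate 1 and between 4.73 and 4.85 on replicate 3, but between 4.36 and 4.73 on replicate 2 and between 4.35 and 4.60 on replicate 4. For Dctpp1 the pairs without overlap were replicates 1 and 4, 2 and 3, and 3 and 4, while replicates 1 and 2 overlapped slightly. Spots of the brightest Rrm2 probe lay between 5.49 and 5.79 on replicate 3, above all those of replicates 2 and 4, which ended at 5.44 and 5.42. For Impdh2 the spots of replicate 3, from 4.95 to 5.12, lay above all those of replicates 2 and 4. In all, 10 of the 60 pairs of arrays had no overlap (16.7%), close to the 15.6% of pairs over all detected probes printed this often, while Mcm3, Rrm1 and both Paics probes overlapped for every pair. At its largest, for Rrm2, the difference between array means was 1.35-fold.

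**Figure D5:**
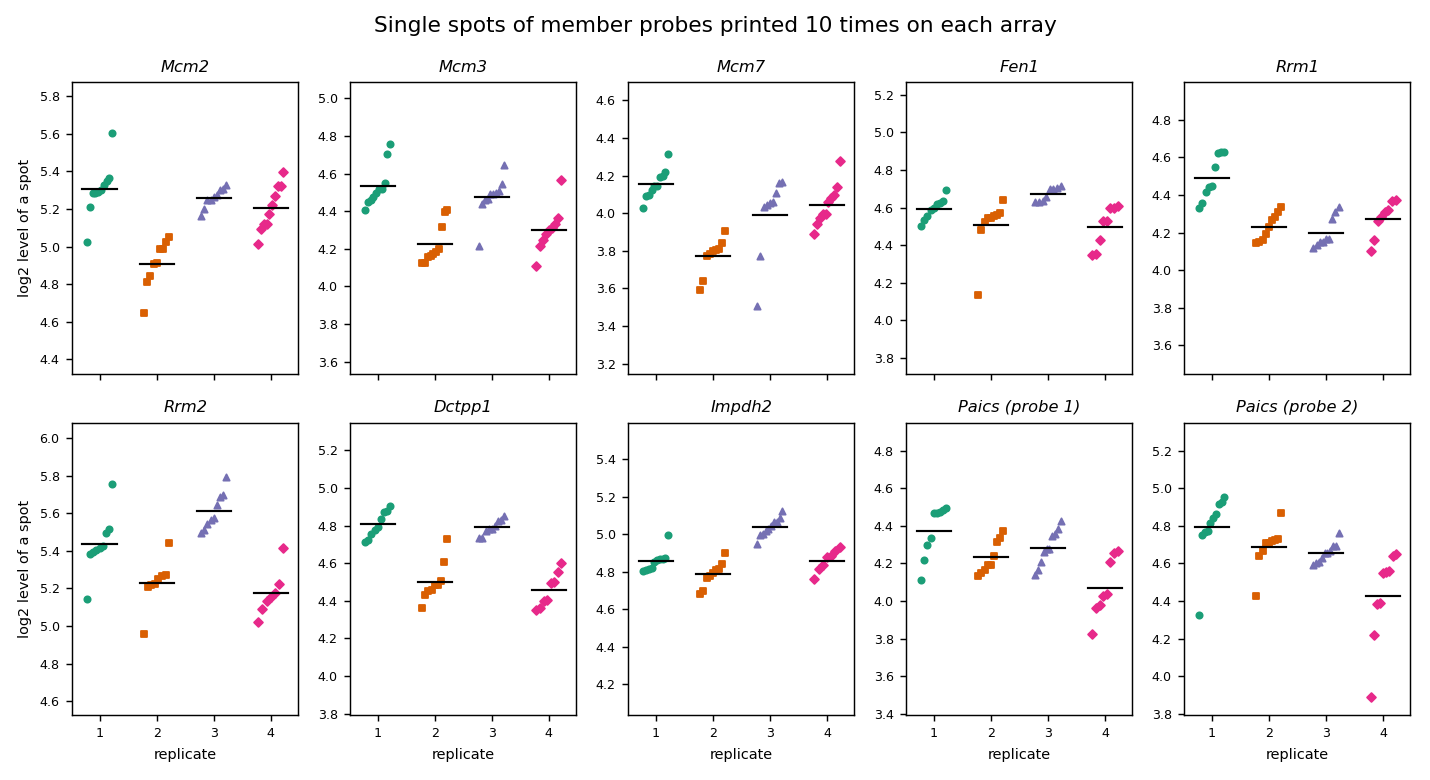
Single spots (points) and their mean (black line) on the 4 arrays for the 10 member probes printed 10 times, as log2 level relative to the 75th percentile of the array. Each panel spans the same height; in Dctpp1 replicates 1 and 3 stand above replicates 2 and 4, and in Paics the arrays overlap.

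Other genes of the pathway, taken from lists fixed by name, were detected to a similar extent. Of 21 measured further genes of the fork, 19 were detected on all 4 arrays (90.5%). Mcm8, a relative of the MCM genes, had levels of -0.44, -0.57, -0.74 and -0.55, and Mcmbp, the MCM-binding protein, of 2.47, 2.45, 2.55 and 2.53. Mcm9 was detected on no array, at -5.02, -5.0, -5.10 and -5.51. Neither was Pole4, a small subunit of polymerase epsilon, at -5.09, -4.93, -4.94 and -5.41. Pole3, another small subunit of the same enzyme, was detected on all 4 arrays, at 3.70, 3.50, 3.41 and 3.47, and is named here after its values were seen.

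Of 27 further genes of nucleotide synthesis, 23 were detected on all arrays (85.2%). Those without full detection were Rrm2b, Dck, Pfas and Impdh1. The p53-inducible reductase subunit gene Rrm2b had values of -5.31, -5.11, -5.05 and -5.79, on no array above background, in contrast to the S-phase subunit Rrm2. Impdh1, the second IMP dehydrogenase, was likewise on none, at -4.62, -4.65, -3.99 and -4.95, in contrast to Impdh2. Deoxycytidine kinase, Dck, was detected on 2 arrays, at -2.84, -4.38, -3.78 and -3.29, and Pfas on 1, at -3.15, -3.11, -3.65 and -2.93. Among those detected, Dguok had levels of 1.51, 0.62, 0.86 and 0.58, with replicate 1 highest.

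Of 21 measured regulators of entry into S phase, 16 were fully detected (76.2%). E2f1 had levels of 2.71, 2.61 and 3.24 on replicates 1 to 3, where it was detected, and replicate 4 gave no value because the scanner software had flagged the spot. Rb1, the retinoblastoma gene, was in the same position, at 0.64, 0.43 and 0.39. E2f3 had levels of -0.64, -0.29, -0.30 and -0.09, and E2f4 of 3.60, 3.24, 3.70 and 3.20. E2f7, a repressor of the family, was detected on 1 array, at -4.22, -2.72, -4.50 and -2.96, and so was Rbl1, at -2.73, -3.03, -2.91 and -3.24. None of the 3 probes of Cdk6 was detected on any array, the brightest at -3.42, -3.54, -3.24 and -2.94. Transcripts of an activating E2F and of Rb1, whose protein restrains it, were thus both detected on replicates 1 to 3.

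Mitosis genes, which act after replication, were detected in 18 of 19 cases (94.7%), with a median SD of 0.16. Mki67 had levels of 3.33, 3.13, 2.89 and 3.07, Ccna2 of 2.29, 2.19, 2.32 and 2.11, and Ccnb1 of 1.90, 1.74, 1.91 and 2.06. Cenpf was detected on 2 arrays, at -1.18, -3.23, -3.04 and -2.76. Their promoters differed from those of the replication genes in the words they held: an E2F word stood in 1 of 17 windows (5.88%), that of Cdk1, and a CCAAT box in 14 (82.4%). For the further fork genes an E2F word stood in 16 of 32 windows (50.0%), and for the further nucleotide genes in 3 of 25. A gene with several annotated starts counts once for each window, so the 16 windows belong to fewer genes. These differences between lists were not tested.

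The series as a whole set the frame for these values. The 4 arrays share a slide and a scan, correlated at 0.9905 to 0.9935 across detected genes, which are not independent, and no 2 held identical values. As a check of the label, 9 of 10 macrophage markers were detected on all arrays, with Adgre1 on 2. Of 5 measured alveolar macrophage markers, Pparg, Siglec1 and Fabp4 were, while Marco was detected on 1 array and Car4 on none. Full detection was found for 0 of 8 epithelial markers, 1 of 7 fibroblast markers, and among the others for 3 of 5 endothelial, 2 of 5 T cell, 1 of 3 B cell and 1 of 4 neutrophil markers. The part of other cell types in the levels of the replication genes was not tested. One array lay apart from the other 3 by Dixon's limit in 1 of the 42 detected members (2.38%), Mcm10, against 5.35% of all detected genes.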

How the data were processed

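Total RNA of 4 cultures was labelled with Cy3 and hybridised to 1-colour Agilent arrays. The authors deposited linear spot intensities, and the submitters' processing notes name Agilent Feature Extraction 11.0.1.1 as the software. Background had been subtracted from the processed signal, and arrays had not been normalized to each other, per the file headers. Spots flagged as non-uniform or population outliers were left out, and repeated spots of a probe were averaged as log2 of the deposited signal. From this the 75th percentile of each array over 45598 non-control probes, an intensity of 83.8 to 127, was taken away. No spot was saturated. Accessions without version were matched to the RefSeq gene table of GRCr8, which named 21109 probes for 16581 genes, and the remaining probes stayed unnamed. Per the file headers the grid refers to rn4, so array positions and GRCr8 coordinates were not mixed. A gene's level is that of its brightest probe measured on all arrays, and a gene was detected where any probe was well above background.

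With 1 group there was no comparison between groups and no test. The labels call the replicates biological, and the number of arrays, 4, limits the precision. The members and gene lists were chosen with earlier results of these data known. Values are printed for the first 3 measured members of each role group, the 5 detected members with the largest and the 3 with the smallest SD, members not detected on all arrays or with probes that disagree, and, of the other lists, the first 3 measured genes, E2f1 and genes not detected. Alternatives changed the flag, the number of arrays, the probe rule, the scaling, the background correction and the spots used, and left out each replicate. Bright regions were blocks of 16 rows and 8 columns where over 10% of spots of unnamed probes stood 1 log2 unit above every other array. The files give median spot signals and not mean ones, so normexp with an offset of 50 was run on the median signals, an alternative chosen after seeing the data. The steps were tested on simulated data. Tables were computed in Python 3.11.15 (pandas 2.3.3, numpy 2.4.6), figures in matplotlib 3.10.9, and normexp in limma 3.58.1 under R 4.3.3.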

Additional observations from a re-analysis of the deposited data

Results flagged for a closer look

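One array stood apart from the other 3 in 3 of 59 sets of 4 values looked at, which were the levels of the 48 measured genes, the median deviations of the 10 role groups and that of all members. A set was taken where the gap to the nearest array, divided by the range, was above Dixon's limit for 4 values, and chance gives about 1 in 20 such sets. The level of Mcm10 on replicate 3 was -1.28, against -0.86, -0.78 and -0.78 on the other arrays. The median deviation of the polymerase alpha-primase genes, which rests on Prim1 and Prim2, was 0.09 on replicate 3, against -0.02, -0.03 and -0.03. That of the purine synthesis genes was 0.15 on replicate 3, against -0.03, -0.06 and -0.03.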

How the results depend on the processing

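The count of members detected on all 4 arrays stayed between 39 and 46 over 9 alternatives. The less strict flag added Orc5, Cdt1, Pola2 and Pole2 (46 members, against 61.7% of named genes), a limit of 3 of 4 arrays added Cdt1, leaving out replicate 1 also added Cdt1, and requiring every probe removed Gins2, Pole and Rrm1. With the array median as the scale, the median SD was 0.397 for the members and 0.39 for all detected genes. This scale takes another constant from each array, which moves all genes of an array alike. The median deviation on replicates 2 to 4 became -0.332, 0.461 and -0.273 for the members. For all detected genes it became -0.284, 0.46 and -0.284. Why the constants differ between arrays was not tested. Under the other alternatives, leaving out each replicate included, the median SD lay between 0.105 and 0.165. The sign on replicate 4 turned under quantile normalization, the percentile over detected probes, normexp and no detection filter (0.04, 0.04, 0.03 and 0.0025), and on replicate 3 under the percentile over detected probes (-0.0024). Levels of single genes moved by over 1 SD for 11 of 48 genes with the mean of all probes and for 1, Dbf4, without the bright regions. With normexp, 42 moved. The array median and the percentile over detected probes place the zero of the scale elsewhere. Each moves every level by one amount, so that all 48 moved was fixed in advance. No paired analysis was possible because the series has 1 analysed group. Between 0 and 6 member spots of an array lay in bright regions, and leaving such regions out changed no count of detected members. The arrays share a slide and a scan, so neither could be tested as a batch. Dim genes are limited by signal over background.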

Other observations

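Salvage enzymes, which recycle bases and nucleosides, were picked from the wider list after their values were seen. Hprt1, which recovers purine bases, read 4.99, 4.81, 4.76 and 4.79 on the 4 arrays in order, and Aprt, which recovers adenine, had a mean of 6.33 ± 0.12 (SD, n = 4). The mitochondrial thymidine kinase gene Tk2 varied very little, at 3.06, 3.00, 3.01 and 3.00. Samhd1, a dNTP hydrolase best known from non-dividing myeloid cells, was detected on all 4 arrays, at -1.03, -1.23, -0.98 and -1.27. Dhodh, the mitochondrial step of pyrimidine synthesis, had levels of 0.43, 0.42, 0.46 and 0.51.

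Some fork and cyclin genes outside the member list varied more between the arrays than any detected member did, and they too were picked after their values were seen. Wdhd1 and Recql4 had an SD of 0.52 each, with levels of -1.46, -2.51, -2.29 and -1.57 and of -1.59, -1.96, -2.83 and -2.12. Both rest on 1 dim spot, with intensities of 14.7 to 42.9 and of 14.2 to 32.9. Detected genes with a level below 0 had a median SD of 0.24, and the part of low signal in the spread of Wdhd1 and Recql4 was not tested. Ccne2, the cyclin E2 gene, had levels of 0.18, -0.45, -0.86 and -0.90, with replicate 1 highest, while Ccne1 had 3.10, 2.82, 2.95 and 2.83.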
